A study of Arabidopsis thaliana with 18 samples.

Results

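The drought response averaged over 3 genotypes of Arabidopsis thaliana was taken as the mean of the drought minus watered differences within each genotype, so that every genotype counted equally and none was compared with another. All 18 libraries of the series entered it, 9 from drought and 9 from watered plants, and 17678 of 27655 genes passed the filter on low counts and were tested. RNA was taken from the rosettes of plants aged 32 days and kept at 22°C in long days. The wild type was Col-0. The jar1-11 line has lowered expression of JAR1, the enzyme that couples jasmonic acid to isoleucine to give the active hormone, and the JAR1-OE line carries a YFP-JAR1 transgene, whose promoter is not stated in the labels. Watered plants received water throughout, and drought plants, watered for the first 18 days, then received none for 14 days. There were 3 libraries in each of 6 groups, read near the 3′ ends of transcripts. Whether these biological replicates, as the labels term them, were single plants or pools is not stated, and the p-values reflect only how these libraries scatter.

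Abscisic acid (ABA) is the main hormone of water deficit in plants. It is bound by PYR/PYL receptors, which then inhibit clade A PP2C phosphatases, and this frees SnRK2 kinases to activate ABF transcription factors that bind the ABA-responsive element (ABRE) in promoters. Leaves short of water close their stomata, accumulate proline, raffinose and protective LEA proteins, slow their growth and, when the deficit lasts, dismantle their chloroplasts and export nitrogen and sugar.

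Between 4716155 and 9506727 reads fell on genes in a library, so that 3 reads equal 0.316 to 0.636 CPM, the count scaled to the library's total. Levels below are CPM after TMM scaling, and fold changes are on the log2 scale ± SE unless given as folds. JAR1 checked the jar1-11 label: it stood between 5.20 and 6.62 CPM in watered and 1.63 and 3.99 CPM in drought jar1-11, against 21.5 to 40.4 CPM in the other 12 libraries. It did not set JAR1-OE apart from WT, with means of 23.8 against 25.3 CPM in watered and 33.5 against 32.9 CPM in drought groups. Transgene reads occurred in all 6 JAR1-OE libraries and in none of the other 12. Marker lists were set beside the tissue label. Transcripts of 42 photosystem and electron transport genes made up 52890 to 100100 CPM of watered libraries. Of 13 seed storage and oil body genes, 5 (CRU2, CRU3, SESA2, SESA3 and SESA4) had 0 reads throughout. The 13 summed to at most 1.93 CPM with water and 3.42 CPM under drought, and the 1 tested member rose in the mean. The 9 root markers summed to 19.6 to 44.4 CPM in watered and 10.7 to 30.6 CPM in drought libraries. The 9 flower markers summed to at most 6.10 CPM in 14 libraries, but to 43.2 CPM in WT drought 1 and to 13.2, 44.3 and 18.7 CPM in the 3 JAR1-OE drought libraries, so flower transcripts moved with part of the drought group. Counts without these 4 libraries are given beside the shared genes below. Fewer cells of a type and less RNA per cell cannot be told apart in these bulk samples.

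Drought changed most of the tested transcriptome. In the mean over genotypes, 10996 genes changed (62.2% of those tested; edgeR quasi-likelihood test, Benjamini-Hochberg adjusted p under 0.05), 5346 of them higher (30.2%) and 5650 lower (32%). The median fold change of all tested genes was 0.00, so rises and falls are relative to a transcriptome centred there. A mean change of at least 2-fold (1 on the log2 scale) was found for 1811 higher and 2573 lower genes. Within single genotypes, 3207 genes (18.1%) rose and 3736 (21.1%) fell in WT, 5071 (28.7%) rose and 5248 (29.7%) fell in jar1-11, and 2497 (14.1%) rose and 2643 (15%) fell in JAR1-OE. The first principal component, with 78.7% of the variance of the 1000 most variable genes, placed watered libraries between -63.7 and -44.3 and every drought library above them, in JAR1-OE from 5.62 to 7.34, in WT from 36.6 to 66.9 and in jar1-11 from 93.5 to 101.9.

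A mean over genotypes can rest on a single genotype, so a stricter count required each of the 3 within-genotype contrasts to pass in the same direction. These shared genes numbered 2981, with 1374 higher (7.77% of those tested) and 1607 lower (9.09%). They were 57.996% of the genes called in JAR1-OE, 42.9% of those called in WT and 28.9% of those called in jar1-11. A further 69 genes passed in all 3 genotypes with mixed directions. In 1109 genes (6.27%) the lowest drought library lay above the highest watered one, and in 1210 genes (6.84%) the order was the reverse. Most shared genes met this as well, 962 of the higher and 1041 of the lower. Over WT and jar1-11 alone, without the 4 drought libraries that held flower transcripts, 2323 genes rose and 2738 fell in both genotypes, which is a laxer rule because JAR1-OE is left out.

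Shared direction did not mean equal size. The median absolute fold change of the shared genes was 1.19 in JAR1-OE, 1.54 in WT and 2.07 in jar1-11. The response was weakest in JAR1-OE for 1914 of the 2981 and strongest in jar1-11 for 2062. Over all tested genes, 5436 (30.8%) had responses that differed between genotypes in an interaction test on 2 degrees of freedom, and 1283 of the shared genes were among them, which left 1698 shared genes without such a call.

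Shared genes took up a large part of the RNA. The 1374 higher genes held 5.39% to 7.69% of reads in watered libraries (median 6.94%) and 13.7% to 36.1% under drought (median 26.04%). The 1607 lower genes went the other way, from 17.37% to 23.0% (median 18.9%) to 3.49% to 10.5% (median 6.13%). RAB18, a dehydrin, and LEA7, another LEA protein, alone went from at most 0.0250% of reads to between 0.278% and 7.52% (median 3.44%). These genes were chosen on the same libraries, so the direction of the shares follows from the choice and their size is a description.

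Among the 10 strongest shared rises, ranked by the smallest of the 3 genotype responses, 4 genes encode LEA-type or related seed proteins (RD29B, LEA7, LEA4-5 and AT2G21820, annotated as a seed maturation protein). TSPO, a stress-induced membrane protein related to the tryptophan-rich sensory proteins, had 0.594, 2.102 and 9.97 CPM as the lowest, median and highest of 9 watered libraries and 256, 1275 and 3050 CPM under drought, a mean rise of 8.38 ± 0.31 (adjusted p = 2.17e-13). RD29B, a classic ABA-induced gene, had 0.262, 5.11 and 11.2 CPM with water and 250.1, 1752 and 3866 CPM under drought (8.18 ± 0.34, adjusted p = 2.16e-12). In both, every drought library lay more than 10-fold above every watered one.

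SWEET15, a sucrose exporter also known as senescence-associated gene 29, had 0, 0.445 and 0.871 CPM with water and 29.3, 178 and 196 CPM under drought (8.13 ± 0.38, adjusted p = 3.73e-15). LEA7 had the largest mean rise of the 10 and the widest drought range, from 0.162, 2.48 and 25.3 CPM to 220.2, 3309 and 17710 CPM (9.13 ± 0.50, adjusted p = 1.75e-10), with 6.31 in JAR1-OE, 8.53 in WT and 12.55 in jar1-11. AT5G50360, a von Willebrand factor A domain protein, went from 0.148, 0.517 and 0.871 CPM to 26.4, 139 and 214 CPM (7.70 ± 0.27, adjusted p = 2.27e-16). Absence of overlap was a condition for the choice of the 10 genes.

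DAA1, a P-loop nucleoside triphosphatase, rose as well. It went from 1.19, 7.44 and 11.1 CPM to 170, 501 and 803 CPM (6.32 ± 0.17, adjusted p = 3.52e-15), with 6.13 in WT, 6.28 in jar1-11 and 6.54 in JAR1-OE. Its interaction test missed the threshold (adjusted p = 0.715), and it did not meet the interval rule for even responses given below. The other 4, LEA4-5, the lipid-transfer family gene AT4G33550, the uncharacterized AT4G33467 and AT2G21820, rose by 6.38 to 7.499 in the mean.

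**Figure D1:**
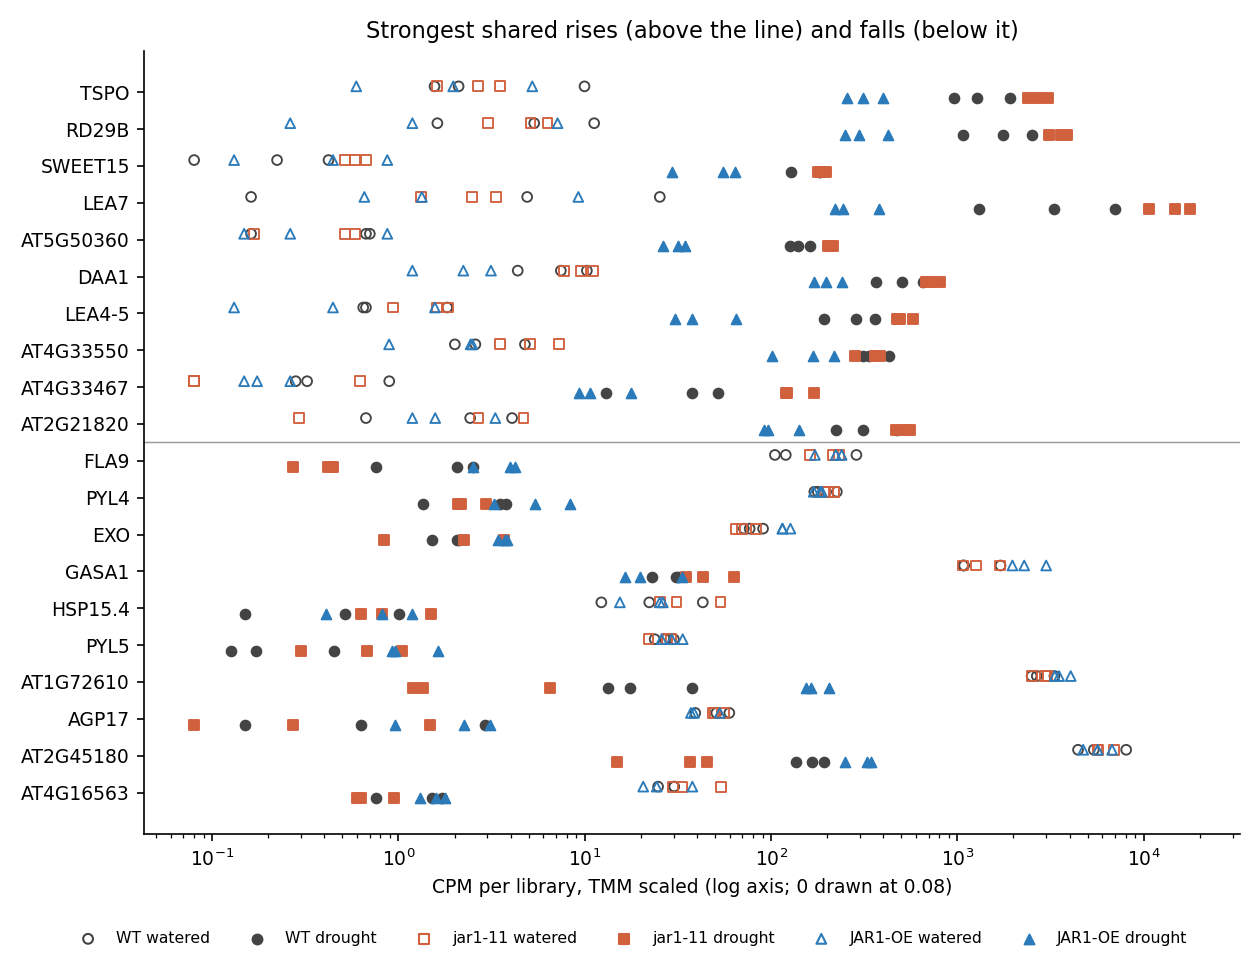
Level of the 10 strongest shared rises and the 10 strongest shared falls in each of the 18 libraries, in CPM on a log axis with 0 drawn at 0.08; open markers are watered and filled markers drought libraries, and marker shape and colour give the genotype. Separation of watered and drought markers was a condition of the choice; its size can be read off, as for TSPO at 0.594 to 9.97 CPM against 256 to 3050 CPM.

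Promoters of a few of these genes are shown because matches to the ABRE core, counted below over all genes, differ in number among them. The sequences are the 250 bases before the annotated start from RefSeq (TAIR10.1), given 5′ to 3′ on the strand of the gene, with each match to the ABRE core ACGTG, on either strand, in capitals, so that a match on the other strand reads CACGT and the palindrome CACGTG counts as 2 overlapping matches. RD29B (chr5:21236771-21237020, plus strand), LEA7 (chr1:19619474-19619723, plus strand) and AT5G50360 (chr5:20506355-20506604, minus strand) carry 4, 5 and 6 matches, SWEET15 (chr5:4183355-4183604, minus strand) carries 1, and TSPO (chr2:19568214-19568463, plus strand) has none in this window. PYL4 (chr2:16049668-16049917, plus strand), a strong fall, stands for the other direction and has none either.
RD29B: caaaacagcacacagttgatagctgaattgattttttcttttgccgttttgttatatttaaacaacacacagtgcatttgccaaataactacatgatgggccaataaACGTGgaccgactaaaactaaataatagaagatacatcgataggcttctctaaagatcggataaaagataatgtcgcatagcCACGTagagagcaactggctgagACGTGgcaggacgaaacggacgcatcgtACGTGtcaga
LEA7: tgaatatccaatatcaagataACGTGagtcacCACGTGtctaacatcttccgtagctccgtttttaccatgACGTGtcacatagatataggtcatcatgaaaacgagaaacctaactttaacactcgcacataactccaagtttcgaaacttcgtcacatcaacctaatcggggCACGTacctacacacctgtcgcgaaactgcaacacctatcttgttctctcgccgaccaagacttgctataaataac
AT5G50360: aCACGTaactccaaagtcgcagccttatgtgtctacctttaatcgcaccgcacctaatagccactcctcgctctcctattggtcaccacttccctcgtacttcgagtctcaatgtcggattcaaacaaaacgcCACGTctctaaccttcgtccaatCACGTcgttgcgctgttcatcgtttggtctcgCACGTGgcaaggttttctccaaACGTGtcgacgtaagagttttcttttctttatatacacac
SWEET15: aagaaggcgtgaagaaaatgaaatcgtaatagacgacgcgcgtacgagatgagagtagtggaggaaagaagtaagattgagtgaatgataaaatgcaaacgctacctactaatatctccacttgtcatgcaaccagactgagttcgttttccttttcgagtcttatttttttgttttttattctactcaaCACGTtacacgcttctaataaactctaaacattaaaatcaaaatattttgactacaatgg
TSPO: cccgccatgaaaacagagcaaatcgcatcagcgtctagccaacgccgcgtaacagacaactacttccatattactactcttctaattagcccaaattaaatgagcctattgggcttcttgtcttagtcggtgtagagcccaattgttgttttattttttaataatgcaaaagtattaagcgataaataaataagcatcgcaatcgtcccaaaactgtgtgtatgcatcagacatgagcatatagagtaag
PYL4: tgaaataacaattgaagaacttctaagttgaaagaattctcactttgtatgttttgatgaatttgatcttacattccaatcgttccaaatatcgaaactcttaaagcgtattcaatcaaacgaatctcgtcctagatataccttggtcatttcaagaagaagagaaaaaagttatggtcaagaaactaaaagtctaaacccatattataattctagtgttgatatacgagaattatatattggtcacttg

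Over all 17573 tested genes with a promoter, 23.9% held ACGTG in this window. The share was 36.5% among shared rises and 46.5% among shared rises of at least 4-fold in the mean (226 of 486), against 20.4% among shared falls and 17.8% among shared falls of at least 4-fold. It was 7 of 10 for the strongest rises and 0 of 10 for the strongest falls. The G-box CACGTG, which contains the core, was found in 7.68% of all promoters, 16% of shared rises and 6.17% of shared falls. The dehydration-responsive element core CCGAC was found in 13.3%, 18.6% and 11.8%, and the evening element AAATATCT, bound by clock proteins, in 5.16%, 7.72% and 5.61%. The heat shock element core GAANNTTC stood at 9.46%, 9.10% and 9.66%. The median GC content of the window was 31.2% over all genes, 31.6% among shared rises and 30.6% among shared falls, but 39.8% among the 10 strongest rises. These shares describe letters in a window and not binding.

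**Figure D2:**
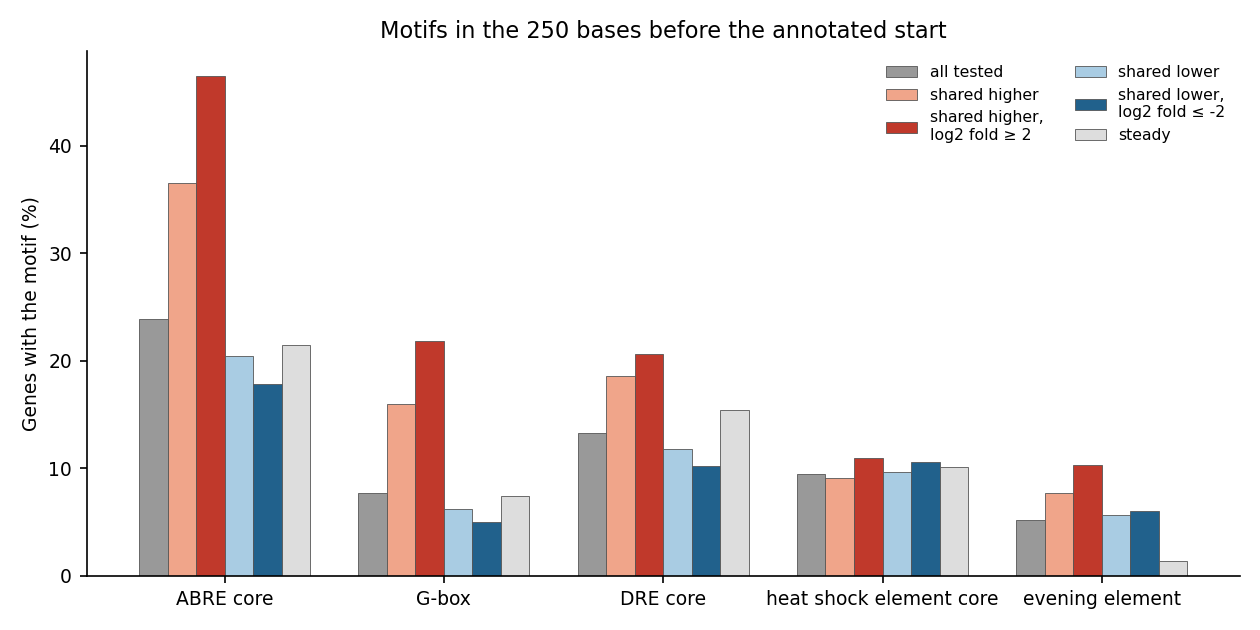
Share of genes, in percent, whose 250 bases before the start hold each motif, for sets of tested genes; bars start at 0. The ABRE core ranges from 17.8% in shared falls of at least 4-fold to 46.5% in shared rises of at least 4-fold, while the heat shock element core stays between 9.10% and 10.9% in the sets of shared genes.

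The 10 strongest shared falls included genes of cell wall proteins and of ABA receptors. FLA9, a fasciclin-like arabinogalactan protein of the cell wall, had 105, 216 and 287 CPM as the lowest, median and highest watered libraries and 0.272, 2.06 and 4.24 CPM under drought (-7.16 ± 0.33, adjusted p = 3.81e-14). EXO, a cell wall protein of the brassinosteroid-regulated growth response, had 64.4, 83.4 and 127 CPM with water and 0.840, 2.24 and 3.82 CPM under drought (-5.11 ± 0.15, adjusted p = 3.52e-15), with -4.92 to -5.40 in the 3 genotypes. GASA1, a gibberellin-regulated small protein, went from 1072, 1696 and 2995 CPM to 16.5, 31.5 and 63.1 CPM (-5.68 ± 0.16, adjusted p = 1.57e-14). As for the rises, absence of overlap was a condition of the choice.

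Abundant transcripts were among the falls. AT2G45180, annotated as a member of the lipid-transfer protein family, went from 4440, 5660 and 8052 CPM to 14.8, 165.5 and 344 CPM (-5.66 ± 0.17, adjusted p = 4.37e-14). AT1G72610, germin-like protein 1 of the apoplast, went from 2502, 3041 and 4056 CPM to 1.19, 17.57 and 204.5 CPM (-7.11 ± 0.22, adjusted p = 5.12e-14), with -4.38 in JAR1-OE, -6.96 in WT and -9.999 in jar1-11. The small heat shock protein gene HSP15.4 (-5.12 ± 0.38), the arabinogalactan protein gene AGP17 (-5.49 ± 0.37) and the aspartyl protease gene AT4G16563 (-4.74 ± 0.22) completed the set with PYL4 and PYL5.

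Some genes were close to absent in 1 condition. In 29 genes at most 3 reads were found over the 9 watered libraries and many under drought, with no overlap of libraries by choice, and 25 of these were shared rises. CWINV5, annotated as a cell wall invertase, had 0 reads with water and 1062 under drought, at least 354-fold higher with 3 reads over the 9 libraries as the floor. Of the 1062 reads, 345 were in WT, 701 in jar1-11 and 16 in JAR1-OE, so the pooled fold is not a common size. NADP-ME1, a malic enzyme, had 2 and 2578 reads, a pooled fold of 1290 (exact binomial 95% interval 356.7 to 10660, counting error only). Its drought reads were as uneven, with 584 in WT, 1967 in jar1-11 and 27 in JAR1-OE. The uncharacterized AT5G40790 had 1 and 704 reads, with 5.29, 9.94 and 18.4 CPM as the lowest, median and highest drought libraries, and so was present in all 9. In AT4G31830, with 2 and 2025 reads, the 3 genotypes did not all pass.

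The reverse was found for 17 genes, and all 17 were shared falls. GASA9, another gibberellin-regulated small protein, had 2804 reads with water, at 36.9 to 58.7 CPM in every library, and 2 under drought (pooled fold 1401, interval 387.5 to 11570). AT5G61160, annotated as an anthocyanin acyltransferase, had 1209 reads and 0, at least 402.7-fold lower. This name is that of the annotation only, and the gene is not in the list of flavonoid and anthocyanin genes below. The glutaredoxin gene GRXS11 had 785 and 1, the homeodomain-like gene MEE3 had 1184 and 3, and the uncharacterized AT1G68238 had 556 and 2.

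Within the ABA signalling core, most receptor genes fell and all phosphatase genes rose. Counts of each list below are to be read beside the shares over all tested genes, which are 30.2% higher and 32% lower in the mean, and 7.77% and 9.09% shared. Of the 14 PYR/PYL receptor genes 8 passed the filter, and 7 of these fell in the mean while 1 rose, with 6 shared falls, 0 shared rises and a median of -1.89. Their summed level lay between 500.4 and 632.1 CPM with water and between 133.2 and 168.1 CPM under drought. PYL4 had 169, 187 and 225 CPM with water and 1.36, 3.27 and 8.31 CPM under drought (-5.83 ± 0.17, adjusted p = 3.64e-15). PYL5 went from 22.0, 27.5 and 33.5 CPM to 0.126, 0.679 and 1.63 CPM (-5.55 ± 0.25, adjusted p = 1.04e-14). PYL6 had 452 reads with water and 0 under drought, at least 150.6-fold lower.

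PYR1, PYL1 and PYL8 fell less, by 1.39 ± 0.07, 1.66 ± 0.14 and 2.12 ± 0.09 in the mean. PYL9 fell slightly in the mean (-0.35 ± 0.12, adjusted p = 0.0134), with 0.19 in JAR1-OE. PYL7 was the exception and rose, from a mean of 21.7 CPM to 34.9 CPM (0.67 ± 0.09, adjusted p = 4.92e-06), with no overlap of its libraries although the 3 genotypes did not each pass. PYL10, PYL12 and PYL13 had 0 reads in all 18 libraries.

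All 9 clade A PP2C phosphatase genes rose in the mean, 7 of them in every genotype, and the median was 4.27 (3.40 with genes absent from a group set to their bound). Their summed level went from between 120.5 and 243.1 CPM to between 1063 and 2935 CPM. HAI1 had 1.34, 4.90 and 6.02 CPM with water and 122.5, 349.9 and 613.1 CPM under drought (6.21 ± 0.22, adjusted p = 6.24e-14). ABI2 went from 13.8, 21.1 and 28.8 CPM to 180.0, 386.9 and 906.1 CPM (4.27 ± 0.09, adjusted p = 1.92e-16). HAI2, HAB1, PP2CA, ABI1 and HAB2 rose by 5.34 ± 0.18, 3.31 ± 0.12, 2.396 ± 0.12, 2.34 ± 0.10 and 1.71 ± 0.09.

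AHG1 and HAI3 were the remaining phosphatases, and neither passed in every genotype. AHG1 had 2 reads over the watered libraries and 267 under drought, a pooled fold of 133.6 (interval 36.6 to 1109). HAI3 had 1 and 641 reads, a pooled fold of 641.5. Both rose in the mean (adjusted p = 1.82e-04 and 2.85e-04), with drought levels of 0.25 CPM for AHG1 and 0.35 CPM for HAI3 in JAR1-OE against 12.5 CPM and 27.0 CPM in jar1-11.

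The median kinase gene stood near its watered level. Of 10 SnRK2 genes 9 were tested, 3 rose in the mean and in every genotype, 2 fell in the mean and 4 were not called, with a median of 0.18. OST1 (SnRK2.6), the kinase of stomatal closure, had 5.51, 13.3 and 16.95 CPM with water and 13.04, 20.8 and 30.2 CPM under drought (0.99 ± 0.12, adjusted p = 1.07e-06), and the libraries overlapped. SNRK2.7 rose by 1.85 ± 0.20 and SNRK2.1 by 0.51 ± 0.10. SNRK2.8 was among the falls (-1.46 ± 0.28, adjusted p = 1.17e-04), from a mean of 2.46 CPM to 0.97 CPM. Its responses were -2.51 in WT, -0.96 in jar1-11 and -0.92 in JAR1-OE, of which only the WT value passed. SNRK2.2 and SNRK2.3, which act with OST1 in ABA signalling, did not pass (0.28 ± 0.12, adjusted p = 0.0539, and 0.18 ± 0.12, adjusted p = 0.216).

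All 5 ABF/AREB transcription factor genes were shared rises, with no overlap between conditions in any of them and a median of 1.88. ABF2 went from 12.3, 16.7 and 30.1 CPM to 70.5, 166.3 and 238.0 CPM (3.01 ± 0.12, adjusted p = 4.50e-13). ABI5, a factor best known from seeds, went from 0.697, 2.42 and 3.37 CPM to 6.51, 9.45 and 16.1 CPM (2.21 ± 0.24, adjusted p = 1.36e-07). ABF3 rose by 1.88 ± 0.12, with 0.85 in jar1-11, 1.96 in WT and 2.83 in JAR1-OE, and was the ABF gene with the widest spread. ABF1 and ABF4 rose by 0.88 ± 0.09 and 0.72 ± 0.09.

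**Figure D3:**
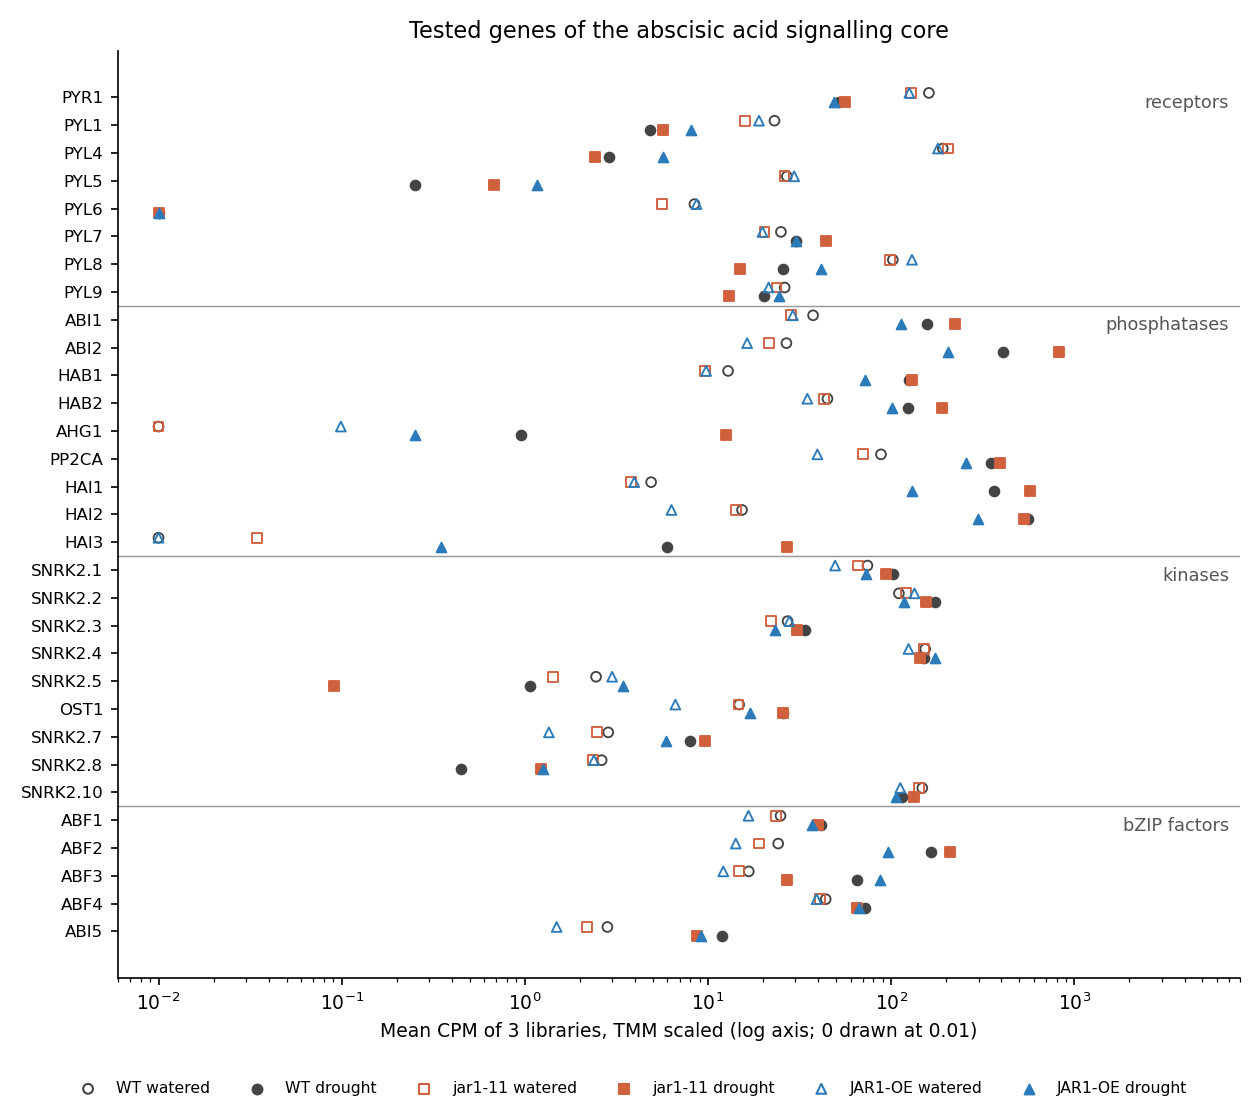
Mean level of 3 libraries, in CPM on a log axis with 0 drawn at 0.01, for the tested receptor, phosphatase, kinase and bZIP factor genes of ABA signalling; open markers are watered and filled markers drought groups, with shape and colour for the genotype. Receptors such as PYL4 lie lower under drought, all 9 phosphatases lie higher, and most kinases lie close to their watered level.

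Genes of both ABA synthesis and ABA breakdown rose. Of 9 ABA synthesis genes 6 were tested and 4 rose, 2 of them in every genotype, with a median of 1.35. NCED3, the rate-limiting dioxygenase of drought-induced ABA synthesis, went from 2.52, 7.92 and 9.41 CPM to 16.6, 23.64 and 33.8 CPM (1.71 ± 0.15, adjusted p = 8.25e-09) without overlap. AAO3, the last enzyme of the pathway, rose by 1.83 ± 0.14, while ABA2, the step before it, did not pass (0.02 ± 0.11, adjusted p = 0.874). Of the 4 CYP707A genes for ABA 8′-hydroxylases, which inactivate ABA, 3 rose, and CYP707A1 rose by 2.35 ± 0.28 (adjusted p = 4.06e-07).

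Most genes of protective proteins rose. Of 17 LEA, dehydrin and COR genes 16 were tested, 15 rose in the mean, 14 of them in every genotype, and 1 fell, with a median of 3.94 (3.66 at the bound). Their summed level went from between 5106 and 12350 CPM to between 14860 and 135100 CPM, with no overlap. RAB18 rose from a mean of 101 CPM to 31010 CPM (7.58 ± 0.29, adjusted p = 3.98e-12), with 5.75 in JAR1-OE, 7.91 in WT and 9.06 in jar1-11. LTI30 went from 47.6, 96.9 and 203.7 CPM to 393.8, 2773 and 10290 CPM (4.49 ± 0.16, adjusted p = 2.37e-13). EM1, a protein of dry seeds, had 0 reads with water and 170 under drought, at least 56.7-fold higher.

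COR15B, a cold-regulated chloroplast protein, was the LEA gene that fell, by 1.74 ± 0.15 in the mean (adjusted p = 9.73e-09), and its response was 0.58 in JAR1-OE against -2.61 in WT and -3.20 in jar1-11. Its close relative COR15A rose in every genotype (2.32 ± 0.19). The ABRE core was found in 11 of the 16 LEA promoters (68.8%) and in 6 of 9 PP2C promoters, beside 23.9% of all tested genes. It was also found in 9 of 11 JAZ promoters (81.8%) and in 5 of 8 promoters of the ERF branch of defence (62.5%), lists of jasmonate signalling of which the first had 0 shared changes and the second 6 shared falls and 1 shared rise, and in 1 of 16 aquaporin promoters.

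Transcription factors of drought and senescence followed. Of 16 such genes 15 rose in the mean and 11 in every genotype, with a median of 2.28. HB12, a homeodomain leucine zipper factor, went from 6.83, 8.70 and 12.5 CPM to 116.7, 352.1 and 666.3 CPM (5.01 ± 0.10, adjusted p = 1.07e-16), and its relative HB7 rose by 4.56 ± 0.12. GBF3, a bZIP factor that binds the G-box, went from 6.27, 6.74 and 8.88 CPM to 66.4, 92.2 and 110.7 CPM (3.62 ± 0.09, adjusted p = 3.67e-16), with 3.39 to 3.82 in the 3 genotypes. The NAC factors RD26, NAC019 and ATAF1 rose by 3.69 ± 0.16, 3.45 ± 0.15 and 2.65 ± 0.13, and DREB2A rose by 2.81 ± 0.16. MYB44 was not called in the mean (0.15 ± 0.12, adjusted p = 0.265).

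Genes of compatible solutes changed as well. P5CS1, which catalyses the controlling step of proline formation, went from 17.9, 26.3 and 32.1 CPM to 790.4, 938.8 and 1601 CPM (5.31 ± 0.11, adjusted p = 2.27e-16), with 4.86 to 5.55 in the 3 genotypes and no overlap. PRODH1, which degrades proline in mitochondria, fell in every genotype (-3.61 ± 0.24, adjusted p = 3.52e-10), from a mean of 109 CPM to 10.9 CPM. P5CDH, a further gene of proline breakdown, was instead a shared rise without overlap (1.80 ± 0.10, adjusted p = 1.31e-11). Of the 6 proline genes PRODH1 was the 1 that fell in the mean, while 5 rose, with 3 shared rises and 1 shared fall. Of 5 galactinol and raffinose synthesis genes 4 were tested and 3 were shared rises, led by GOLS2, from 3.71, 16.2 and 34.8 CPM to 147.6, 263.1 and 323.9 CPM (3.93 ± 0.17, adjusted p = 1.57e-12).

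Sugar transport and starch breakdown split by gene. Of 11 genes 5 rose and 6 fell in the mean, with 4 shared rises, 2 shared falls and a median of -0.33. Beside SWEET15, SWEET4 rose by 4.07 ± 0.14, and BAM1, a beta-amylase of stressed leaves and guard cells, by 2.17 ± 0.10. ERD6 and SWEET17, both sugar transporters, were shared falls, with means of -2.197 ± 0.14 and -1.44 ± 0.12.

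Photosynthesis genes fell together, but with unequal size. Of 42 photosystem, antenna and electron transport genes 41 fell in the mean, 17 of them in every genotype, and 0 rose, with a median of -1.15. The medians behind it were -0.46 in JAR1-OE, -1.03 in WT and -2.03 in jar1-11, and 37 of the 42 had an interaction call, beside 30.8% of all tested genes. PSAH2, a subunit of photosystem I, went from 698.7, 863.1 and 1389 CPM to 66.7, 207.9 and 597.8 CPM (-2.24 ± 0.12, adjusted p = 1.31e-11), with -1.20 in JAR1-OE and -3.23 in jar1-11. In 4 of the 42 the drought libraries all lay below the watered ones, beside 6.84% of all tested genes.

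Of 19 Calvin cycle genes 17 fell, 13 of them in every genotype, with a median of -1.25. RBCS2B, a small subunit of Rubisco, went from 444.9, 915.9 and 1620 CPM to 2.04, 17.57 and 245.2 CPM (-5.27 ± 0.21, adjusted p = 7.64e-13), and RBCS3B and RBCS1A fell by 3.19 ± 0.13 and 2.60 ± 0.12. These subunit genes are near-identical, as are the LHCB antenna genes, so the division of reads among their copies is uncertain. Of 12 photorespiration genes 11 were tested and all 11 fell, 4 of them in every genotype, led by GOX2, a glycolate oxidase (-1.89 ± 0.08, adjusted p = 5.47e-13). Of 13 chlorophyll synthesis genes 11 fell and 1 rose, but only CHLI1 (-1.48 ± 0.10) and CHLM (-1.63 ± 0.11) were shared falls.

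Chlorophyll breakdown and senescence rose moderately. Of 7 breakdown genes 4 rose, each in every genotype, and 0 fell. They were PAO, which opens the chlorophyll ring (1.78 ± 0.13), SGR2 (1.98 ± 0.17), SGR1 (1.08 ± 0.13) and PPH (0.72 ± 0.09). SGR1, which starts the removal of magnesium, went from 29.1, 41.8 and 51.6 CPM to 45.5, 98.0 and 109.2 CPM, with 0.87 to 1.21 in the 3 genotypes, and overlapped between conditions. Of 9 senescence markers 6 rose and 1 fell, with 3 shared rises that include SWEET15, SAG21 (2.23 ± 0.13) and NAP (1.55 ± 0.14). Of 13 autophagy genes 11 rose in the mean, but 1, ATG8G, rose in every genotype (0.86 ± 0.09) and ATG8E fell in every genotype (-1.31 ± 0.11), so that these paralogues moved in opposite directions.

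Nitrogen genes mostly fell. Of 19 genes of assimilation and remobilization 18 were tested, 15 fell, 11 of them in every genotype, and 2 rose, with a median of -1.83. NRT1.1, a nitrate transporter and sensor, went from 79.8, 251 and 257.7 CPM to 7.69, 11.7 and 20.2 CPM (-4.00 ± 0.15, adjusted p = 2.62e-13) without overlap. The chloroplast enzymes NIR1, GLU1 and GLN2 fell by 2.48 ± 0.19, 1.84 ± 0.09 and 1.31 ± 0.08. GLN1;3, a cytosolic glutamine synthetase, was the shared rise (1.39 ± 0.09, adjusted p = 1.75e-10), while GLN1;2 and GLN1;4 fell by 1.82 ± 0.12 and 3.05 ± 0.23.

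Water channels fell with 2 exceptions. Of 19 PIP and TIP aquaporin genes 16 were tested, 14 fell in the mean, 11 of them in every genotype, and the median was -3.11 (-2.74 at the bound). TIP1;2, of the vacuole membrane, went from 2511, 3177 and 5930 CPM to 17.2, 140.1 and 1053 CPM (-4.62 ± 0.12, adjusted p = 4.29e-15). PIP1;3, of the plasma membrane, went from 333.8, 400.9 and 561.0 CPM to 4.18, 21.6 and 123.1 CPM (-4.06 ± 0.18, adjusted p = 1.42e-12). PIP1;4 and PIP2;5 were shared rises without overlap, by 1.34 ± 0.09 and 2.62 ± 0.16.

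Most wall-loosening genes of growth fell. Of 11 xyloglucan endotransglucosylase genes 10 fell and each of the 10 did so in every genotype, with a median of -4.27 (-4.20 at the bound). The remaining 1 rose in jar1-11, fell in JAR1-OE and was not called in the mean. The summed level of the list went from 846.9 to 933.9 CPM with water to 393.9 to 823.1 CPM under drought in jar1-11. Under drought it was 92.6 to 181.9 CPM in WT and 96.1 to 130.2 CPM in JAR1-OE. XTH4 went from 153.0, 257.6 and 380.7 CPM to 6.79, 12.1 and 25.2 CPM (-4.18 ± 0.14, adjusted p = 4.91e-14), and XTH33 had 419 reads with water and 0 under drought, at least 139.6-fold lower. Of 12 alpha expansin genes 10 fell and 2 rose in the mean, with 5 shared falls, 0 shared rises and a median of -2.57. EXPA1 went from 163.0, 272.7 and 408.4 CPM to 5.27, 7.69 and 34.7 CPM (-4.27 ± 0.26, adjusted p = 1.35e-10). Of 15 cell division genes 11 were tested and 8 fell in the mean, but 0 passed in every genotype in either direction.

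**Figure D4:**
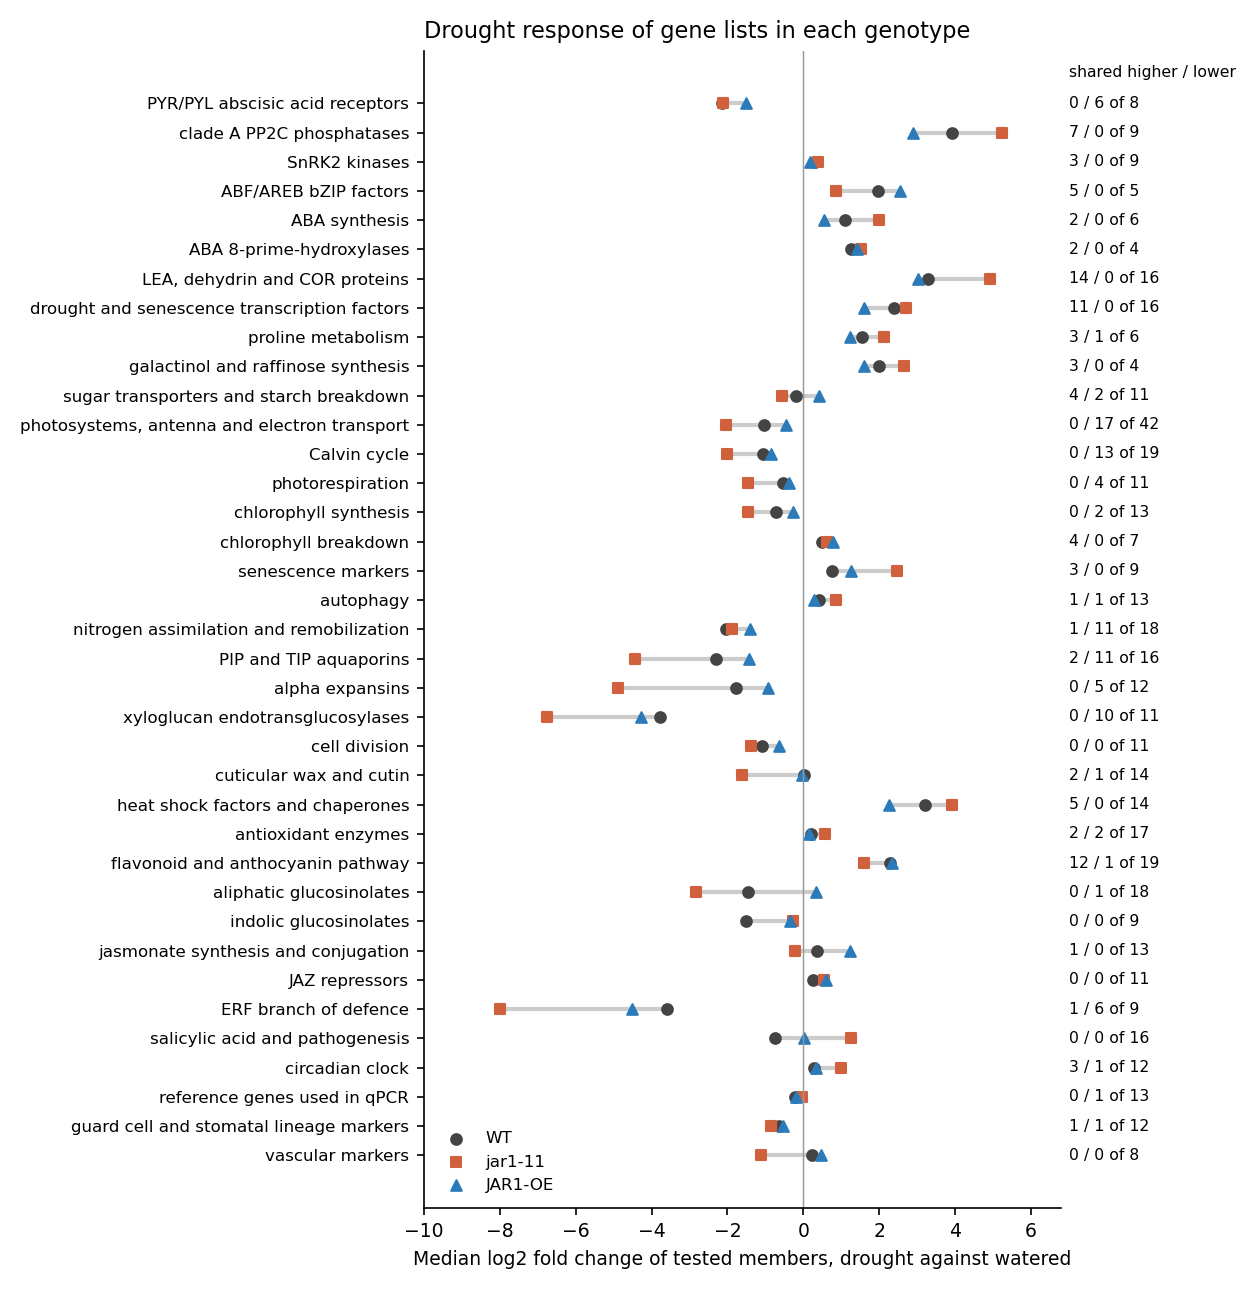
Median log2 fold change (drought over watered) of the tested members of each gene list in WT, jar1-11 and JAR1-OE, with the number of shared rises and falls of the members tested at the right; fitted values are used for genes at 0 reads in a group. Phosphatase, LEA and transcription factor lists lie above 0 and aquaporin, xyloglucan endotransglucosylase and ERF lists below 0 in all 3 genotypes.

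Most pigment genes rose. Of 21 flavonoid and anthocyanin genes 19 were tested, 16 rose in the mean, 12 of them in every genotype, and 2 fell, with a median of 2.25. F3H, an early flavonoid enzyme, went from 6.16, 9.72 and 14.3 CPM to 38.5, 47.1 and 73.8 CPM (2.25 ± 0.15, adjusted p = 2.32e-10), with 2.03 to 2.39 in the 3 genotypes. MYB75 (PAP1), an activator of anthocyanin genes, rose by 3.33 ± 0.23, and MYBL2, a repressor of the pathway, was the shared fall (-1.66 ± 0.12, adjusted p = 4.13e-10). The entry steps of phenylpropanoid metabolism changed less: PAL1 did not pass (0.21 ± 0.15, adjusted p = 0.217) and PAL2 fell by 0.44 ± 0.11.

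Among 16 heat shock factor and chaperone genes 14 were tested, 13 rose in the mean, 5 of them in every genotype, and 1 fell, with a median of 2.36. HSFC1 went from 2.79, 3.56 and 6.74 CPM to 44.1, 82.3 and 124.2 CPM (4.31 ± 0.16, adjusted p = 5.08e-14), and HSP70-4 went from 3.12, 17.5 and 37.1 CPM to 80.6, 363.3 and 1235 CPM (4.302 ± 0.20, adjusted p = 3.98e-12). Of 18 antioxidant genes 17 were tested, 8 rose and 5 fell in the mean, with 2 shared changes each way. Over all tested genes 30.2% rose and 32% fell in the mean, and 7.77% and 9.09% were shared rises and falls, so no result about this list is read from its counts. CSD2, the chloroplast copper/zinc superoxide dismutase, fell by 2.35 ± 0.21, and GPX6 rose by 0.78 ± 0.09.

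The defence genes that respond jointly to jasmonate and ethylene fell. Of 9 genes of this ERF branch 7 fell, 6 of them in every genotype, and ERF1, a transcription factor of the branch, was a shared rise (3.38 in the mean), with a median of -5.79 (-5.51 at the bound). ORA59, its transcription factor, went from 45.3, 110.3 and 176.4 CPM to 0.879, 1.96 and 9.09 CPM (-5.39 ± 0.22, adjusted p = 6.51e-14). The PDF1.2 defensin copies are near-identical and their reads cannot be assigned with certainty. The JAZ repressors of jasmonate signalling showed no such common change, as 5 rose and 1 fell of 11 tested in the mean and 0 passed in every genotype. Of 16 salicylic acid genes 5 rose, 6 fell and 0 passed in every genotype, with a median of 0.02. That value hid opposite signs, as the medians were -0.74 in WT, 1.255 in jar1-11 and 0.02 in JAR1-OE. Over all tested genes 30.2% rose and 32% fell in the mean, so no result is read from the counts of this list.

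Evenness over genotypes was defined as a shared change of at least 2-fold in the mean with the 95% intervals of all 3 pairwise differences between genotypes inside ±1 on the log2 scale, and 125 genes met it (0.707% of those tested), 76 rises and 49 falls. The 2307 shared genes of that size are the pool they came from. The rule selects genes with small errors, so it favours well-measured genes.

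Shared genes with a mean change of at least 4-fold and at least 10 CPM were also ranked by the spread of their 3 genotype values, a choice that fixes their closeness. Among the 5 rises and 5 falls with the smallest spread, CPUORF47, AT5G43150, AT3G19680 and CGA1 met the interval rule and the other 6 did not. AT5G43150 went from 21.5, 38.4 and 47.9 CPM to 232, 341 and 414 CPM (3.14 ± 0.10, adjusted p = 1.24e-14), with 3.08, 3.12 and 3.21 in JAR1-OE, jar1-11 and WT. The uncharacterized AT3G27250 went from 0.742, 1.92 and 2.81 CPM to 22.4, 37.1 and 56.1 CPM (4.25 ± 0.20, adjusted p = 6.56e-13). CPUORF47 (AT5G03190), annotated for an upstream open reading frame peptide, rose by 2.196 ± 0.13. AT2G41905 and AT1G53100 rose by 2.11 ± 0.23 and 2.06 ± 0.20. For AT2G41905 the WT drought libraries had 58.9, 13.9 and 21.0 CPM. The highest is WT drought 1, which held flower transcripts, so its WT value leans on that library. Watered and drought libraries did not overlap for the 5 rises. The choice of large shared rises favours this, as 962 of all 1374 shared rises did not overlap, beside 6.27% of all tested genes.

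Of the 5 falls with the smallest spread, AT3G19680, which encodes a protein of unknown function, went from 66.2, 82.8 and 97.2 CPM to 8.80, 10.11 and 13.6 CPM (-2.95 ± 0.10, adjusted p = 4.37e-14), with -2.92, -2.95 and -2.98 in jar1-11, JAR1-OE and WT. CGA1, a cytokinin-responsive GATA factor that promotes chloroplast development, went from 16.1, 20.6 and 27.5 CPM to 2.26, 4.202 and 5.73 CPM (-2.38 ± 0.14, adjusted p = 4.67e-11). ABCB21, an auxin transporter, fell by 2.94 ± 0.15, AT1G24530 by 2.71 ± 0.17 and the pectin acetylesterase gene AT4G19420 by 2.29 ± 0.15. Conditions did not overlap for any of the 5 falls. The choice favours this too, as 1041 of all 1607 shared falls did not overlap, beside 6.84% of all tested genes.

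At the other end, 150 genes (0.849%) were steady, with the 95% intervals of all 3 genotype responses inside ±0.5 on the log2 scale, and their median level was 45.2 CPM. Among those with the highest CPM, which is not divided by length and whose genes are named here after their values were seen, were ERD4, a membrane protein first isolated as dehydration-responsive, at 361.3, 456.7 and 507.6 CPM with water and 386.3, 445.5 and 527.9 CPM under drought (0.03 ± 0.08), and the ribosomal genes RPP1A (-0.05 ± 0.08) and RPL6C (-0.01 ± 0.11). UBC1, a ubiquitin-conjugating enzyme, had 115.9, 131.9 and 137.8 CPM with water and 104.2, 125.4 and 152.3 CPM under drought (-0.00 ± 0.08). Steadiness here is relative to the TMM scaling and not to RNA per cell. The count was 256 without WT watered 1, 92 without JAR1-OE watered 3 and 96 without JAR1-OE drought 1, and at 1.5 times the interval limit it was 1599.

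None of 13 genes often used as references in Arabidopsis was steady by this rule, beside 0.849% of all tested genes. With so small a share, and a rule that needs narrow intervals, no result about reference genes is read from this count. Of the 13, 6 were not called in the mean, where 62.2% of all tested genes were called. ACT2 was an even fall, from 392.5, 470.2 and 588.1 CPM to 205.5, 220.6 and 281.0 CPM (-1.06 ± 0.08, adjusted p = 9.52e-10), with -0.9987 to -1.13 in the 3 genotypes and no overlap. UBQ10 fell by 0.57 ± 0.10 in the mean, with -0.99 in WT and -0.04 in JAR1-OE. UBC9, TUB2, GAPC2 and UBQ5 fell by 0.37, 0.38, 0.36 and 0.25 in the mean, and TIP41L rose by 0.32 ± 0.10.

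UBC21 lay closest to 0 of the 13, at 14.1 to 22.3 CPM with water and 11.2 to 20.6 CPM under drought (0.02 ± 0.12, adjusted p = 0.920), and PP2AA3 had -0.14 ± 0.12 (adjusted p = 0.334). A p that misses the threshold does not show that these levels were equal. Of the 13 genes, 6 had an interaction call, among them ACT8 and EF1A4, whose means hid responses of -0.31 to 0.46 and of -0.85 to 0.34.

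**Figure D5:**
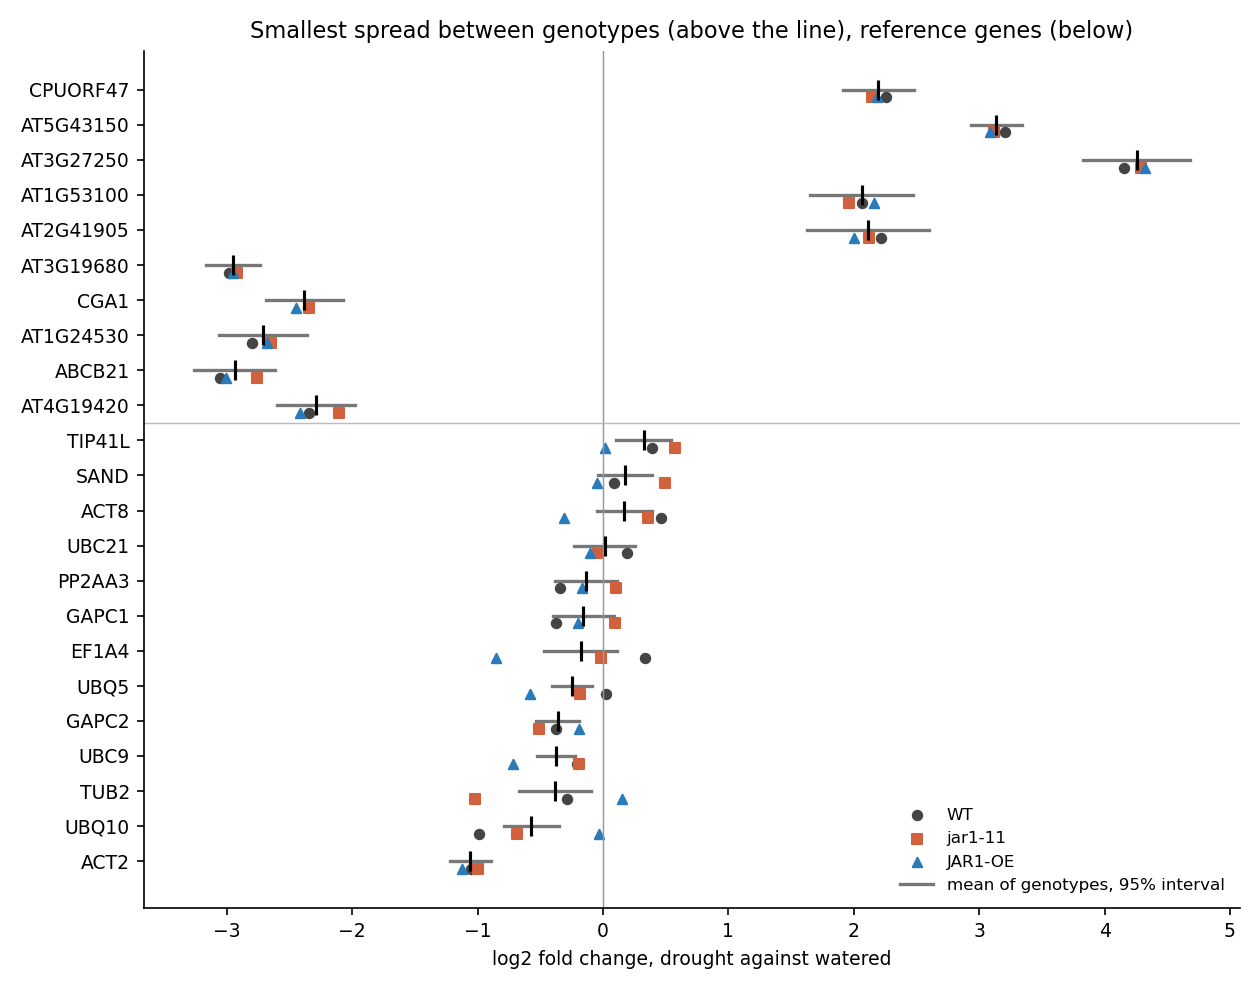
Mean log2 fold change (drought over watered) with its 95% interval, and the 3 genotype values as dots, for the 10 shared genes chosen for the smallest spread between genotypes and for 13 reference genes. The dots of the chosen genes lie close together by that choice, as for AT3G19680 at -2.92 to -2.98, while among the reference genes ACT2 lies at -1.06 and UBC21 at 0.02.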

How the data were processed

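RNA of rosette leaves from 18 libraries was read with a QuantSeq 3′ mRNA kit on an Illumina HiSeq instrument, per the labels' protocols. Counts were deposited: whole numbers of unique reads per gene, per the file headers. The sources used here do not name the aligner, the counter, its strand setting or the build. Only reads of 1 place were counted, so near-identical, overlapping and antisense genes are uncertain. The YFP-JAR1 entry was kept out of totals and tests. Of 27655 genes, 27433 matched RefSeq TAIR10.1 by identifier and 27432 had the same length there.

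Groups came from the labels. Counts were scaled by TMM, filtered with filterByExpr and modelled with a mean for each of the 6 groups over all libraries, in edgeR 4.0.16 under R 4.3.3. Quasi-likelihood F-tests were run for the mean of the 3 genotype contrasts, for each contrast and for their interaction, with Benjamini-Hochberg adjustment over 17678 genes and a threshold of 0.05. SEs and 95% intervals are Wald values from the quasi-likelihood dispersion. Where a condition had 0 reads over 9 libraries, 3 reads served as the floor; with 1 to 3 reads the pooled fold has an exact binomial interval. Both cover counting error only, as no molecular identifiers are described. The biological coefficient of variation was 19.8%, and replicate pairs of a group differed by 5.54 to 27.9 chi-square per degree of freedom. The procedure was also run on simulated counts, in which few genes changed and each by the same size in every genotype. That setting does not cover changes as widespread as those here, or changes that differ between genotypes.

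Named genes were JAR1, the 10 shared rises and 10 shared falls with the largest weakest genotype response (at least 10 CPM in the higher condition of every genotype, over 3 reads in every group, no overlap of libraries), 5 genes each way with at most 3 reads in a condition, the 5 rises and 5 falls with the smallest spread between genotypes among shared genes changed at least 4-fold and reaching 10 CPM, the 13 reference genes, and up to 3 members per list. Further list members are named from the list counts. The members and the 40 lists (517 genes) were chosen with earlier results of these data known. Alternatives tried were DESeq2 1.42.0, limma-voom (limma 3.58.1), RLE scaling, no filter, an additive model, a replicate block, no organelle genes, pairs of genotypes, a fold threshold, other interval limits and each library left out. Promoters are the 250 bases before the start in RefSeq's table, found for 17573 tested genes.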

Additional observations from a re-analysis of the deposited data

Results flagged for a closer look

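The drought response of many genes that shared a direction still differed in size between genotypes, by the interaction test with Benjamini-Hochberg adjustment (edgeR). This held for 1283 of the 2981 shared genes, for 3 of the 10 strongest rises (TSPO, LEA7 and AT5G50360) and for 6 of the 10 strongest falls (FLA9, PYL4, GASA1, PYL5, AT1G72610 and AT2G45180). Over all tested genes the share was 30.8%, and several counts below lie near it, such as 6 of 19 flavonoid and 4 of 12 clock genes.

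Among lists of ABA signalling, the test called 5 of 8 receptor genes, 4 of 9 PP2C genes, 2 of 9 SnRK2 genes, 1 of 5 ABF genes and 3 of 6 ABA synthesis genes. Among protective genes it called 10 of 16 LEA genes, 9 of 16 transcription factors, 5 of 6 proline genes, 1 of 4 galactinol and raffinose genes, 6 of 14 heat shock genes and 7 of 17 antioxidant genes.

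Among chloroplast lists the test called 37 of 42 photosystem genes, 16 of 19 Calvin cycle genes, 9 of 11 photorespiration genes and 9 of 13 chlorophyll synthesis genes. In aliphatic glucosinolates it called 17 of 18. Chlorophyll breakdown had 2 of 7, senescence 5 of 9, autophagy 6 of 13, nitrogen 11 of 18 and sugar transport 6 of 11.

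In growth and water relations the test called 13 of 16 aquaporins, 9 of 12 expansins, 7 of 11 xyloglucan endotransglucosylases, 3 of 11 cell division genes and 7 of 14 wax genes. It called 6 of 19 flavonoid genes, 5 of 9 indolic glucosinolate genes, 9 of 13 jasmonate synthesis genes, 4 of 11 JAZ genes, 4 of 9 ERF branch genes, 8 of 16 salicylic acid genes, 4 of 12 clock genes and 6 of 13 reference genes. Among marker lists it called 3 of 12 guard cell, 1 of 3 root and 3 of 8 vascular genes.

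Reads of the YFP-JAR1 transgene, which no comparison uses, numbered 609 over the watered and 731 over the drought JAR1-OE libraries and 0 in the other 12. The libraries differed widely, with 214, 88 and 307 reads in watered and 558, 26 and 147 in drought replicates 1 to 3.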

How the results depend on the processing

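The direction split and the mean counts were close under RLE scaling (5200 higher and 5756 lower), DESeq2 (5209 and 5766), limma-voom (5376 and 5685), no filter (5243 and 5972), no organelle genes (5097 and 5796) and the additive model (4899 and 5031). Tested against a log2 fold change of 1, 1164 genes were higher and 1704 lower, so that 40.6% of calls were higher instead of 48.6%. Shared genes numbered 1443 higher and 1725 lower over WT and JAR1-OE, 1917 and 2200 over jar1-11 and JAR1-OE, 2337 and 2732 over WT and jar1-11, and 2323 and 2738 when also leaving out WT drought 1 for its flower transcripts, an alternative chosen after seeing the data; requiring 2 genotypes instead of 3 is the laxer rule. The interaction called 751 genes over WT and JAR1-OE, 1981 over WT and jar1-11, 6076 over jar1-11 and JAR1-OE, and 1008 over WT and jar1-11 without WT drought 1. At 1.5 times the interval limits 518 genes were even and 1599 steady. Leaving out each library in turn gave 5090 to 5596 higher, 5475 to 5826 lower, 1122 to 1570 shared higher, 1305 to 1783 shared lower, 4217 to 5749 interaction calls, 97 to 176 even and 92 to 256 steady genes. The cause was not tested.

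No pairing by replicate number was seen within genotypes, where deviations of same-numbered libraries from their group means correlated by -0.0839 to 0.114 over 9 pairs. This does not exclude a pairing, as each group holds only 3 libraries. With a replicate block, 5239 genes were higher and 5560 lower, 1299 and 1550 were shared, and the interaction called 4997.

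Of 152 named genes past the threshold, 124 kept their call and direction in every alternative that tested them; with single genotypes left out, 150 or 151 of the 152 were tested. CESA8 was the only one lost when a library was left out, and it reversed to 0.25 over WT and JAR1-OE. JAR1 reversed from -0.06 to 0.44 over WT and JAR1-OE (adjusted p = 0.0198), where jar1-11 is left out. Depth limits genes near 3 reads, at 0.316 to 0.636 CPM.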

Other observations

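Of 14 cuticular wax and cutin genes 3 rose and 6 fell in the mean, with 2 shared rises and 1 shared fall. CER1, which forms alkanes, went from 1.17, 6.57 and 11.3 CPM (lowest, median and highest watered libraries) to 18.1, 51.9 and 68.7 CPM (2.69 ± 0.19, adjusted p = 6.60e-10, edgeR quasi-likelihood test). WSD1, which forms wax esters, rose by 4.07 ± 0.43, with 3.96 to 4.27 in the 3 genotypes, while KCS1, which elongates fatty acids, was the shared fall (-1.93 ± 0.22).

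Of 12 tested clock genes 6 rose and 2 fell in the mean, with 3 shared rises, CCA1 (1.68 ± 0.23), RVE8 (2.31 ± 0.22) and ELF4 (1.296 ± 0.10), and 1 shared fall, LUX (-0.89 ± 0.10). ELF4 and LUX, partners in the evening complex, thus moved in opposite directions in every genotype. The sources used here do not state the time of day of harvest.

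Of 12 tested guard cell and stomatal genes 7 fell and 1 rose. GORK, the outward potassium channel of closing guard cells, went from 1.31, 2.35 and 3.52 CPM to 6.85, 16.9 and 38.6 CPM (2.66 ± 0.20, adjusted p = 8.90e-10), and FAMA, the factor of guard cell fate, was a shared fall (-0.70 ± 0.09). Among 8 vascular markers 1 rose and 2 fell in the mean, with 0 shared changes. Their medians were 0.22 in WT, -1.11 in jar1-11 and 0.45 in JAR1-OE.

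Means hid opposite responses in some lists. Of 18 aliphatic glucosinolate genes 14 fell in the mean, but MAM3 was the shared fall (-4.41 ± 0.33) and the medians were -1.46 in WT, -2.84 in jar1-11 and 0.32 in JAR1-OE. Of 9 indolic genes 6 fell, 1 rose and 0 were shared. Of 13 jasmonate synthesis and conjugation genes 7 rose and 3 fell, and ACX1, a peroxisomal oxidase of beta-oxidation, was the shared rise (1.39 ± 0.09). Over all tested genes, 301 had calls of opposite direction in different genotypes.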
